A study of Mus musculus with 5 samples.

Results

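The 55 genes described here carry out DNA replication or mitosis. They were taken by gene symbol from a table of read counts for 18051 genes in dendritic cells of the mouse thymus, and all 55 were found there. By their textbook roles 29 were placed in S phase, when DNA is copied (E2f1, Ccne1 and Ccne2, which act at the entry to S phase, were put there too), and 26 in M phase, the term used here for genes of G2 and mitosis. Untreated C57BL/6J mice aged 6 to 8 weeks gave 2 libraries. C57BL/6J mice of that age, taken on day 4 after total body irradiation (TBI), gave 3 libraries, and the sources used here do not state the radiation dose. In both groups thymi were pooled, digested, and sorted by flow cytometry for CD45, MHC class II and CD11c, a gate that holds dendritic cells and can also hold macrophages and other cells carrying those proteins. The labels do not say that the libraries of a group came from separate pools of mice, so p-values measure the spread between these libraries, which may be technical.

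A dividing cell switches on these genes in successive waves. Licensing proteins load the MCM2-7 helicase onto replication origins in G1, the helicase fires with CDC45 and GINS in S phase, and polymerases, clamp loaders and nucleotide-producing enzymes then copy the genome. E2F factors bound to their promoters drive much of this first wave. The second wave peaks in G2 and mitosis, when cyclin B with CDK1, the Aurora and Polo kinases, the spindle motors and the kinetochore proteins separate the chromosomes. Many genes of the second wave are known to be held down in resting cells by the DREAM complex at a promoter element called CHR, which the MuvB complex with B-MYB and FOXM1 uses to activate them later. Thymic dendritic cells arise from dividing precursors, and most mature ones divide rarely.

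The promoters show how the members of each wave differ in sequence. RefSeq windows of 300 bases on GRCm38.p6, from 250 bases before to 50 after a start site, were matched by symbol for 46 of the 55 genes (51 windows), and none was found for Aurkb, Ccna2, Ccne2, Cdc25c, Foxm1, Gins1, Gins2, Mcm4 and Tpx2. Both strands were searched for the CHR letters TTTGAA, for 4 E2F-type motifs (TTGGCGC, the variant TTCCCGC, the variant TTGCCGC and the variant TTCGCGC) and for CCAAT, the NF-Y motif. A TTGGCGC match can share letters with a reversed TTCGCGC or, after an A, with a reversed CCAAT, and each was counted. CHR letters stood in 17 of 22 windows of M-phase genes (77.3%), in 2 of 29 windows of S-phase genes (6.9%, Cdc45 and Mcm2), in 17.9% of all 32851 windows and in 12.2% of the 11829 windows of tested genes. At least 1 E2F-type motif stood in 19 of 29 S-phase windows (65.5%), in 4 of 22 M-phase windows (18.2%), in 9.57% of all windows and in 16.2% of those of tested genes, near the M-phase share. CCAAT and CHR letters stood together in 72.7% of M-phase windows, 6.9% of S-phase windows, 6.95% of all windows and 4.89% of those of tested genes. A match is a description of these letters and shows no binding.

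Below, 4 M-phase promoters are printed as examples of CHR and CCAAT letters, with the matches in capitals. Each run holds the 150 bases before the RefSeq start site, 5′ to 3′ on the gene's strand, and positions are counted back from that site. The Mki67 run lies at chr7:135716380-135716529 (minus strand), Cenpf at chr1:189688087-189688236 (minus strand), Top2a at chr11:99024190-99024339 (minus strand) and Kif11 at chr19:37376232-37376381 (plus strand). Mki67, one of the M-phase genes that fell, held CHR letters at -116 and -98, CCAAT at -141 and an E2F-type match at -67. Cenpf, another that fell, held CCAAT at -132 and -71, and its CHR letters lay after the start site, at 3. Top2a and Kif11, which did not pass the test, held reversed CHR letters at -23 and -19. Prc1, which fell, held CHR letters at -5 and CCAAT at -37 in one window (-30 and -62 in the window of another start site), whereas the Cenpe window had CCAAT and no CHR letters.
Mki67: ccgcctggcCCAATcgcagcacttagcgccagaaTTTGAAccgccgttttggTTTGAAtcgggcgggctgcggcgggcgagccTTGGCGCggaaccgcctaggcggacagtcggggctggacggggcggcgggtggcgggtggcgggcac
Cenpf: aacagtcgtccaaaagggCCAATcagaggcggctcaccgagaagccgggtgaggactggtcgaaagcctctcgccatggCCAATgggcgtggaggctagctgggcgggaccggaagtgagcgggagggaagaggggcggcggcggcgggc
Top2a: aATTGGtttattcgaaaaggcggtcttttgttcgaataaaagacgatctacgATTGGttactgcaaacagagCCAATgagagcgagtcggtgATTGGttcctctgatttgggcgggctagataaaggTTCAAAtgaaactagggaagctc
Kif11: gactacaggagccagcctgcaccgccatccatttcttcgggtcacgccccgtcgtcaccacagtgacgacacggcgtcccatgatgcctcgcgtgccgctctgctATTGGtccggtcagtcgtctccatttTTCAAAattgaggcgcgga

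The S-phase examples show E2F-type letters, again in capitals together with CCAAT. Mcm6 lies at chr1:128359706-128359855 (minus strand), Pola1 at chrX:93632156-93632305 (minus strand), Chaf1a at chr17:56040266-56040415 (plus strand) and Rrm1 at chr7:102441545-102441694 (plus strand). Mcm6 held 2 overlapping pairs of E2F-type matches, at -109 with -106 and at -46 with -43, where TTGGCGC and the reverse of TTCGCGC share letters. Pola1 held them at -138 and -121, Chaf1a at -56 and -47, and Rrm1 at -67. Chaf1a was the single S-phase gene with a fold change below 0. Among the S-phase genes that rose, Cdt1 held E2F-type letters only after its start site, at 19 and 34, and the Dut window held none. The start site of that Dut window, chr2:125247515, lies inside the gene as GENCODE M21 annotates it, from 125247190. Bases before the annotated Dut start were therefore not searched.
Mcm6: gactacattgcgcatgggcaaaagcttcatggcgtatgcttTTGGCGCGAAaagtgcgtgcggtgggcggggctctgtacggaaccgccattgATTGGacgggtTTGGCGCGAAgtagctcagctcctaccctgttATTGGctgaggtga
Pola1: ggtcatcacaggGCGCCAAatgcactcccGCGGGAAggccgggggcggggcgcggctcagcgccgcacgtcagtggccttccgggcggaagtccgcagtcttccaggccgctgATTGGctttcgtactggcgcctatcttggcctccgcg
Chaf1a: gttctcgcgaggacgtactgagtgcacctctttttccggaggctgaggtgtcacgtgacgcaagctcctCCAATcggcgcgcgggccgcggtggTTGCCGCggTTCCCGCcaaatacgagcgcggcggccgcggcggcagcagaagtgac
Rrm1: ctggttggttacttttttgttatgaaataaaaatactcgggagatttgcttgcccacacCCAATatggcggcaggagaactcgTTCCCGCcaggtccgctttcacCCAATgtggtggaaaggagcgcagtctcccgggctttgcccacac

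The libraries held 7227000 to 8428589 counts, where 1 count equals 0.123 to 0.145 CPM (counts per 1000000, with TMM-scaled library sizes here and below). Every member passed the filter on low counts and entered the test with 12046 genes. TBI libraries differed from untreated ones far more than replicates did from each other (chi-square per gene 120 to 135 between groups, 4.90 between untreated libraries and 9.79 to 28.2 between TBI libraries), and the second principal component, with 13.7% of the variance, parted TBI replicate 1 from TBI replicates 2 and 3. Over all genes, 23.1% passed edgeR's quasi-likelihood test at an adjusted p of 0.05, with 13.3% higher and 9.79% lower after TBI. Markers of other cell types changed at the same time. Summed CPM of 12 macrophage markers went from 2412 and 2031 to 10434, 11259 and 11379, that of 8 plasmacytoid dendritic cell markers from 2951 and 2930 to 302, 421 and 385, and that of 14 thymocyte and T cell markers from 3045 and 2735 to 1740, 1610 and 1605. The largest falls in the thymocyte and T cell sum were those of Cd8a (521 and 508 to 90.0, 114 and 60.5 CPM), Cd8b1 (407 and 364 to 105, 111 and 61.0 CPM) and Cd4 (317 and 266 to 49.4, 65.3 and 76.4 CPM). Cd3d, Cd3e and Lck overlapped between the groups and Cd3g rose. Which of the sorted cells carried these transcripts was not tested. In sorted bulk RNA, fewer cells of a type and less RNA per cell cannot be told apart.

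After TBI most S-phase genes had positive and most M-phase genes negative log2 fold changes, of small size, and few passed the test. Of 29 S-phase genes, 3 rose (Cdt1, Gins2 and Dut, 10.3% of them against 13.3% of all genes), 0 fell and 26 did not pass. Of 26 M-phase genes, 4 fell (Cenpe, Prc1, Mki67 and Cenpf, 15.4% against 9.79% of all genes), 0 rose and 22 did not pass. These shares of called genes are near the background. An unadjusted p under 0.05 was found for 11 S-phase genes (37.9%) and 7 M-phase genes (26.9%), against 35.7% of all genes. The direction was more uniform than the calls. The median log2 fold change was 0.38 over the S-phase genes, -0.30 over the M-phase genes and -0.01 over all genes tested, and 28 of 29 S-phase values were above 0 while 20 of 26 M-phase values were below 0 (with library sizes alone, 7 S-phase and 4 M-phase values turned from above to below 0). In 19 of 29 S-phase genes every TBI library was above both untreated libraries (27.8% of all genes), and in 15 of 26 M-phase genes every TBI library was below both (28.3% of all genes). The reverse arrangement occurred in 0 genes of either phase. These counts take no account of the size of the gap. They include Mcm3 (208 and 189 CPM untreated, 212, 212 and 216 CPM after TBI) and Cdca8 (55.7 and 55.6 against 54.9, 54.6 and 54.9 CPM), where it was narrow.

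**Figure D1:**
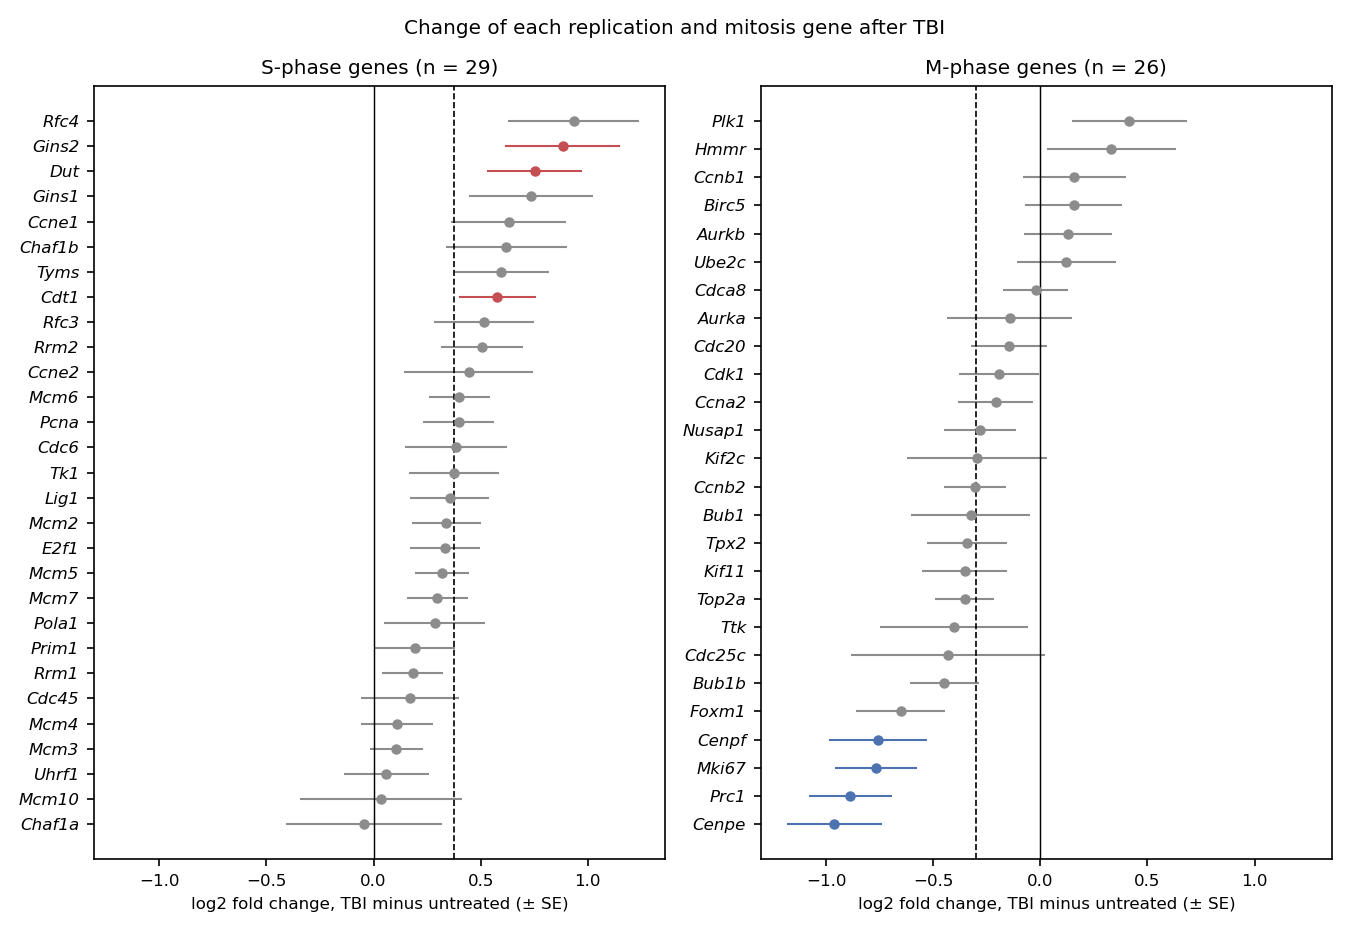
Log2 fold change of each gene (TBI minus untreated, points) with its approximate standard error (bars), S-phase genes on the left and M-phase genes on the right. Red points rose and blue points fell at an edgeR adjusted p of 0.05, grey points did not pass, and the dashed lines mark the phase medians of 0.38 and -0.30.

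The single calls depended on the scaling and on the libraries. With library sizes alone as scaling, all genes shifted by a median of -0.23, 0 S-phase genes rose and 9 M-phase genes fell, and the phase medians were 0.15 and -0.53. In that fit 10.3% of all genes rose and 17.7% fell. Under upper quartile scaling 0 S-phase genes passed, where 12.5% of all genes rose. Without TBI replicate 1, 7 S-phase genes rose (Mcm2, Mcm5, Mcm6 and Rfc4 besides Cdt1, Gins2 and Dut) and 8 M-phase genes fell. Of all genes, 17.8% then rose and 14.8% fell. Without TBI replicate 2, Gins2 and Rrm2 rose and Cenpe and Prc1 fell, where 11% of all genes rose and 7.62% fell. Without TBI replicate 3, Dut rose and Cenpe and Prc1 fell, where 12.2% of all genes rose and 9.05% fell. Without untreated replicate 1 or without untreated replicate 2, 0 genes of either phase passed and the share of all genes called was 10.3% and 10.2%. The S-phase median minus the M-phase median was 0.68. A scaling moves all genes of a library alike and so can hardly alter this difference, and over all alternatives run, the left-out libraries among them, it lay between 0.63 and 0.69.

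Among the licensing genes, which prepare origins before replication, Cdt1 rose. Cdt1, the factor that brings the MCM helicase to origins, had 32.8 and 28.4 CPM in untreated libraries and 44.8, 44.7 and 47.8 CPM after TBI, so that the groups did not overlap (log2 fold change 0.58 ± 0.18 SE, edgeR adjusted p = 0.0489). Its partner in loading, Cdc6, had a log2 fold change of 0.39 with overlapping groups. The helicase subunits were the most abundant members of the group. Mcm6 stood at 241 and 260 CPM untreated and at 306, 311 and 375 CPM after TBI (0.40 ± 0.14, edgeR adjusted p = 0.0775). Mcm5 stood at 189 and 180 CPM untreated and at 217, 237 and 238 CPM after TBI (0.32 ± 0.13, edgeR adjusted p = 0.105). Neither passed the test, although all TBI values were above the untreated ones. Over the 6 helicase subunit genes (Mcm2 to Mcm7), 0 passed, the median log2 fold change was 0.31 and 5 of 6 had TBI libraries above both untreated libraries (27.8% of all genes), Mcm4 being the exception. With library sizes alone, Mcm3 and Mcm4 turned to -0.12 and -0.11. In the licensing group TBI replicate 1 was never the highest TBI library and was the lowest in 5 of 8 genes.

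The firing factors assemble the active helicase. Gins2, a subunit of the GINS complex, rose from 16.5 and 15.3 CPM to 38.6, 23.0 and 26.6 CPM (0.88 ± 0.27, edgeR adjusted p = 0.0465), and the highest value was that of TBI replicate 1. Gins1, another subunit, had 7.28 and 6.70 CPM untreated and 13.2, 9.37 and 12.4 CPM after TBI, and did not pass (0.73 ± 0.29, edgeR adjusted p = 0.108). Cdc45, which joins GINS on the helicase, overlapped between the groups with 27.0 and 33.2 CPM untreated against 32.8, 27.9 and 41.1 CPM after TBI (0.17 ± 0.23, and -0.05 with library sizes alone). Mcm10, needed to start unwinding, had 17.2 and 20.5 CPM untreated and 9.68, 23.0 and 24.9 CPM after TBI. TBI replicate 1 was therefore below both untreated libraries for Mcm10 while the other TBI libraries were above them.

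The enzymes of DNA synthesis included no gene that passed, but their values pointed the same way. Rfc4, a subunit of the loader of the PCNA clamp, had the highest log2 fold change of all 55 genes. It stood at 22.7 and 28.8 CPM untreated and at 70.5, 40.0 and 37.4 CPM after TBI (0.93 ± 0.31, edgeR adjusted p = 0.0611). Rfc3, of the same complex, stood at 18.3 and 17.4 against 31.4, 22.4 and 22.9 CPM (0.51 ± 0.23, edgeR adjusted p = 0.156). Pcna, the clamp itself, stood at 122 and 122 CPM against 192, 149 and 141 CPM (0.40 ± 0.16, edgeR adjusted p = 0.122). Lig1, the ligase that seals Okazaki fragments, stood at 52.8 and 52.6 CPM against 75.6, 55.2 and 71.7 CPM (0.36 ± 0.18, edgeR adjusted p = 0.207). In Rfc4, Rfc3, Pcna and Lig1 the groups did not overlap. The polymerase and primase subunits Pola1 and Prim1 had log2 fold changes of 0.28 and 0.19, the latter -0.03 with library sizes alone. TBI replicate 1 was the highest TBI library in 6 of 6 synthesis genes, the opposite of its place among the licensing genes.

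The enzymes that supply nucleotides had the highest median log2 fold change among role groups of 5 or more genes, 0.50. Dut, which removes dUTP before it can enter DNA, rose from 57.3 and 57.6 CPM to 127, 83.2 and 80.6 CPM (0.75 ± 0.22, edgeR adjusted p = 0.0417). Tyms, the thymidylate synthase, stood at 52.6 and 48.7 CPM against 98.8, 62.2 and 68.7 CPM (0.60 ± 0.22, edgeR adjusted p = 0.0911). Rrm2, the regulated subunit of ribonucleotide reductase, stood at 159 and 152 CPM against 270, 172 and 219 CPM (0.50 ± 0.19, edgeR adjusted p = 0.0968). Neither Tyms nor Rrm2 passed, although their groups did not overlap. Rrm1, the large subunit, overlapped at 162 and 173 CPM against 167, 200 and 203 CPM (0.18 ± 0.14, -0.04 with library sizes alone), and Tk1, the salvage kinase for thymidine, had a log2 fold change of 0.38. The subunits of ribonucleotide reductase thus differed in where TBI replicate 1 lay, at the top for Rrm2 and at the bottom for Rrm1.

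The genes of chromatin assembly at the fork overlapped between the groups. Chaf1a and Chaf1b encode subunits of the histone chaperone CAF-1, and Uhrf1 brings the maintenance DNA methyltransferase to new DNA. Chaf1a stood at 25.8 and 24.9 CPM untreated and at 13.4, 23.9 and 36.2 CPM after TBI (-0.05 ± 0.36). Chaf1b stood at 30.1 and 22.8 CPM against 50.4, 27.9 and 43.8 CPM (0.62 ± 0.28, edgeR adjusted p = 0.154). Uhrf1 stood at 103 and 97.2 CPM against 79.5, 107 and 127 CPM (0.06 ± 0.20, -0.16 with library sizes alone). The lone negative value of Chaf1a rested on TBI replicate 1, since its log2 fold change was 0.24 without that library. Of the regulators of S-phase entry, the transcription factor E2f1 stood at 45.8 and 42.6 CPM against 53.0, 58.5 and 55.5 CPM (0.33 ± 0.16, edgeR adjusted p = 0.181). Cyclin E1 (Ccne1) stood at 8.51 and 9.23 CPM against 11.9, 12.9 and 16.5 CPM (0.63 ± 0.27, edgeR adjusted p = 0.131). Cyclin E2 (Ccne2) stood at 10.5 and 8.98 CPM against 16.8, 9.75 and 13.3 CPM (0.44 ± 0.30). None of them passed, and E2f1 and Ccne1 had TBI libraries above both untreated libraries.

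**Figure D2:**
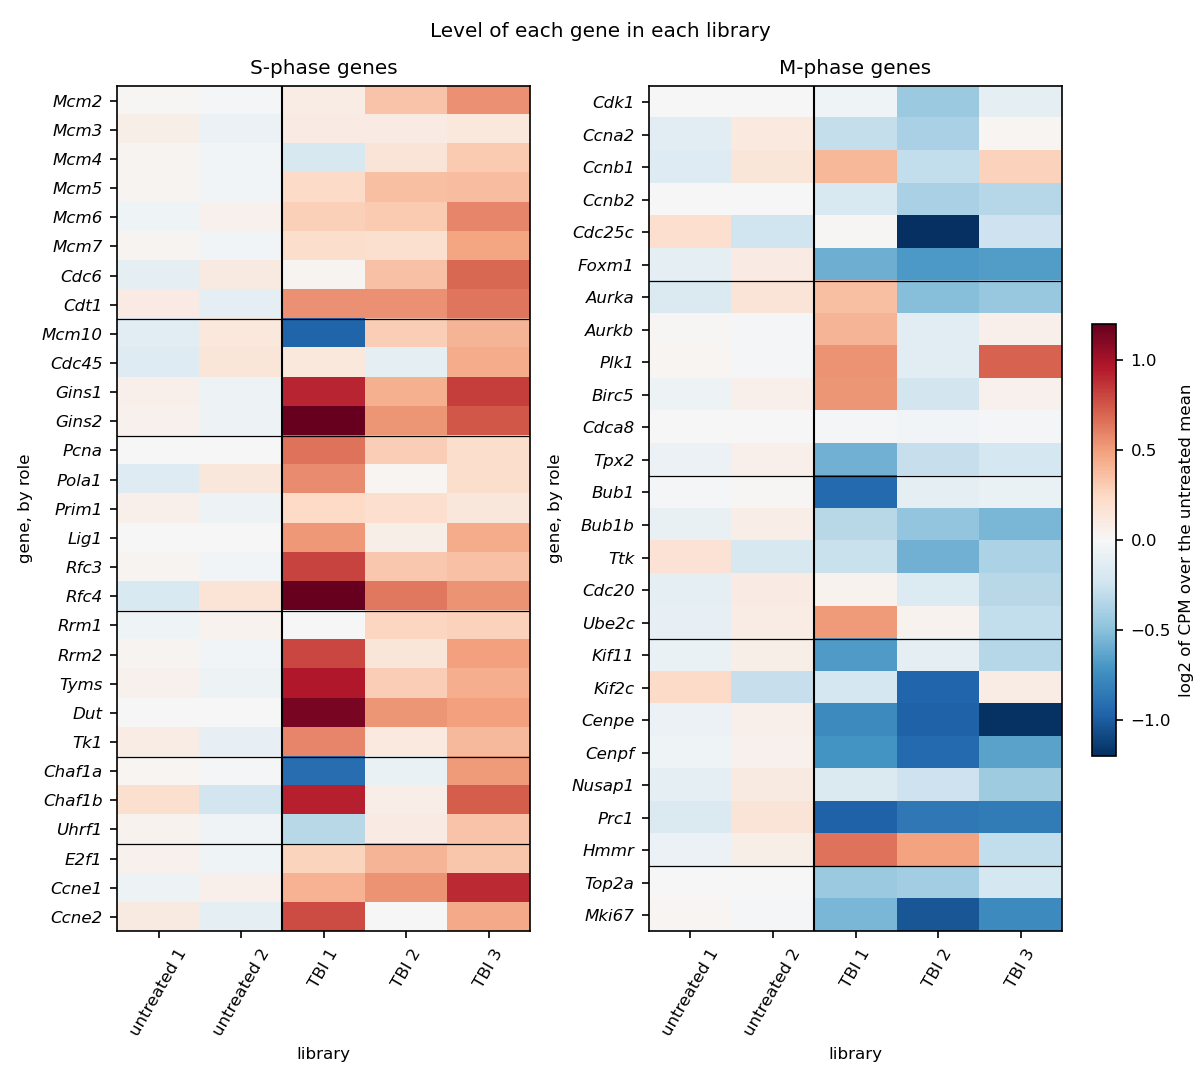
Log2 of the CPM of each gene in each library over the mean of the untreated libraries, S-phase genes on the left and M-phase genes on the right, ordered by role (horizontal lines part the role groups; colours beyond the ends of the scale are drawn as the end colour). Red is higher and blue lower than the untreated mean, and TBI replicate 1 is deep blue for Mcm10, Chaf1a and Bub1 and deep red for Rfc4 and Gins2.

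In M phase, the genes that fell belonged to the spindle and kinetochore group, where 3 of 7 passed (42.9%, against 9.79% of all genes), and to the pair of chromosome genes, where Mki67 did. That share is of few genes. Among 59 other mitosis genes, which include further kinesins and kinetochore genes, 1 fell (1.69%). Of the 3, Cenpe and Cenpf no longer passed once a trend with transcript length was removed (given below). Prc1, which bundles the microtubules of the central spindle, fell from 38.3 and 48.0 CPM to 22.0, 23.8 and 24.2 CPM (-0.89 ± 0.19, edgeR adjusted p = 0.0123). Cenpe, the kinetochore motor that aligns chromosomes, fell from 25.5 and 27.9 CPM to 15.8, 13.7 and 11.8 CPM (-0.96 ± 0.22, edgeR adjusted p = 0.0157). Cenpf, a large protein of the outer kinetochore, fell from 18.1 and 19.5 CPM to 11.4, 9.87 and 12.0 CPM (-0.76 ± 0.23, edgeR adjusted p = 0.0444). In these 3 genes the TBI libraries lay close together, below both untreated libraries. The spindle motor Kif11 had 60.3 and 67.1 CPM untreated and 39.9, 59.2 and 50.4 CPM after TBI (-0.35 ± 0.20, edgeR adjusted p = 0.245). Nusap1, a microtubule stabiliser, had 60.2 and 69.9 CPM against 57.5, 54.7 and 48.5 CPM (-0.28 ± 0.17, edgeR adjusted p = 0.267). Neither passed, and both kept the groups apart. Kif2c and Hmmr overlapped, with log2 fold changes of -0.30 and 0.33.

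Mki67, which encodes the Ki-67 protein that coats mitotic chromosomes and serves as a general mark of cycling cells, fell from 60.7 and 58.9 CPM to 40.9, 29.4 and 35.1 CPM (-0.77 ± 0.19, edgeR adjusted p = 0.0216). Top2a, the topoisomerase that untangles sister chromatids, stood at 145 and 144 CPM against 106, 108 and 124 CPM and did not pass (-0.35 ± 0.14, edgeR adjusted p = 0.0993). Both genes lay lower in every TBI library than in either untreated one. They differ in abundance per length. Top2a reached 16.0 ± 0.14 RPKM (CPM per kilobase of exon, mean ± SD, n = 2) in untreated libraries and Mki67 5.95 ± 0.13 RPKM.

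The cyclins and CDK1, with the factors that switch them on, included no gene that passed. Foxm1, the transcription factor of the G2 wave, stood at 22.2 and 25.7 CPM against 15.9, 14.8 and 15.0 CPM (-0.65 ± 0.21, edgeR adjusted p = 0.0559). Cyclin B2 (Ccnb2) stood at 87.6 and 87.1 CPM against 76.7, 66.8 and 68.7 CPM (-0.30 ± 0.15, edgeR adjusted p = 0.174). Cyclin A2 (Ccna2), which acts in S and G2, overlapped at 81.4 and 96.5 CPM against 73.1, 67.9 and 90.1 CPM (-0.21 ± 0.17). Foxm1 missed the threshold by little, and without TBI replicate 1 both Foxm1 and Ccnb2 passed. The catalytic partner Cdk1 had a log2 fold change of -0.19 and the phosphatase gene Cdc25c -0.43. Cyclin B1 (Ccnb1) had 0.16, which turned to -0.07 with library sizes alone.

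The mitotic kinases and their partners had a median log2 fold change of 0.05, and 0 of 6 passed. Plk1, the Polo kinase of mitotic entry, had 25.8 and 25.0 CPM untreated and 37.0, 23.2 and 41.5 CPM after TBI (0.41 ± 0.27, edgeR adjusted p = 0.309). Birc5 (survivin), of the Aurora B complex, had 56.1 and 60.9 CPM against 84.7, 50.4 and 60.6 CPM (0.15 ± 0.23, -0.07 with library sizes alone). Cdca8 (borealin), of the same complex, had 55.7 and 55.6 CPM against 54.9, 54.6 and 54.9 CPM (-0.02 ± 0.15). The Cdca8 values were thus nearly equal in all libraries, while Plk1 and Birc5 spread widely among TBI libraries. Tpx2, which activates Aurora A on the spindle, had 45.9 and 50.2 CPM against 32.2, 39.8 and 41.5 CPM (-0.34 ± 0.19, edgeR adjusted p = 0.227). Aurka and Aurkb themselves overlapped between the groups, with log2 fold changes of -0.14 and 0.13, the latter -0.10 with library sizes alone.

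Of the spindle checkpoint and the ubiquitin machinery that ends mitosis, 0 of 5 genes passed. The checkpoint gene Bub1b stood at 66.8 and 75.2 CPM against 56.5, 51.0 and 48.6 CPM (-0.45 ± 0.16, edgeR adjusted p = 0.0811). Bub1 stood at 27.5 and 28.1 CPM against 14.6, 25.6 and 26.3 CPM (-0.33 ± 0.28), with TBI replicate 1 far below the other TBI libraries. Ttk, the kinase that starts the checkpoint, was among the least abundant members at 7.65 and 5.94 CPM against 5.64, 4.56 and 5.22 CPM (-0.40 ± 0.35). Bub1b, Bub1 and Ttk all lay lower in every TBI library. Ube2c, the ubiquitin-conjugating enzyme of the anaphase-promoting complex, overlapped at 80.2 and 91.5 CPM against 122, 88.2 and 69.9 CPM (0.12 ± 0.23, -0.11 with library sizes alone), and Cdc20, the activator of that complex, had a log2 fold change of -0.15.

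Summed over genes, the phases separated within each library. The S-phase genes added up to 2163 and 2131 CPM untreated and to 2724, 2551 and 2861 CPM after TBI. The M-phase genes added up to 1225 and 1312 CPM untreated and to 1178, 1005 and 1079 CPM after TBI. These sums depend on the TMM scaling. As unscaled shares of all counts, the S-phase genes held 0.2386% and 0.2332% untreated and 0.2497%, 0.2391% and 0.2759% after TBI, so that TBI replicate 2 nearly equalled untreated replicate 1. The M-phase genes held 0.135% and 0.144% untreated and 0.108%, 0.094% and 0.104% after TBI. The ratio of S to M, which no scaling between libraries can alter, was 1.77 and 1.62 untreated and 2.31, 2.54 and 2.65 after TBI. When the genes that act in both phases or at their borders (E2f1, Ccne1, Ccne2, Cdk1, Ccna2, Top2a, Mki67 and Foxm1) were left out, the ratio was 2.41 and 2.20 untreated and 2.94, 3.29 and 3.60 after TBI. All TBI ratios thus exceeded both untreated ratios with either list. Gene by gene, 29 of 29 S-phase log2 fold changes were above the M-phase median, 11 of 29 were above those of every M-phase gene, and 19 of 26 M-phase values were below those of every S-phase gene.

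**Figure D3:**
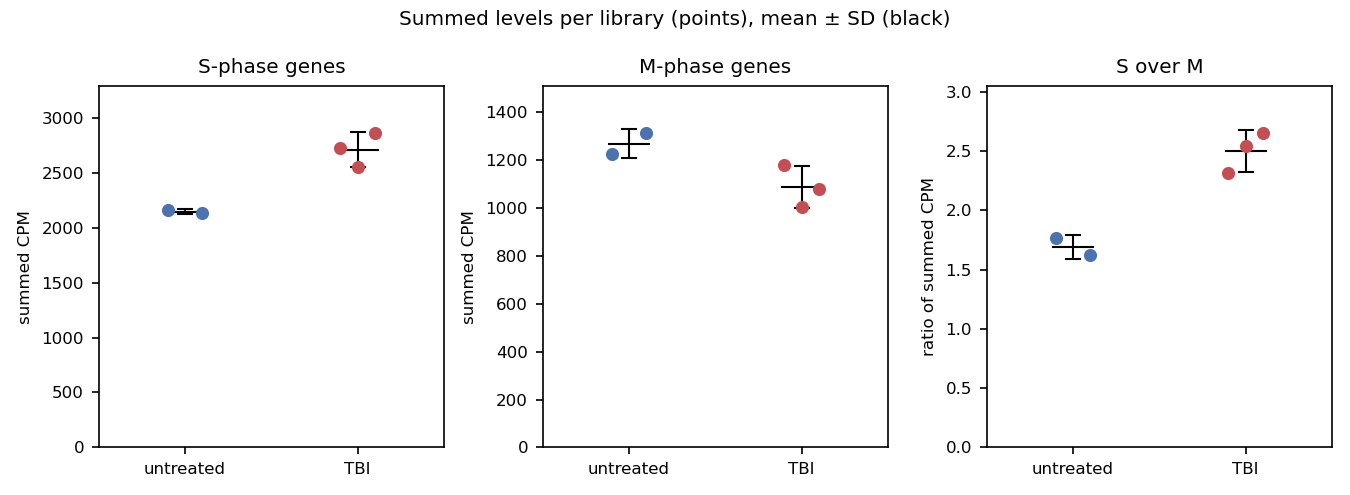
Summed CPM (TMM-scaled) of the S-phase genes, of the M-phase genes, and the ratio of both sums, for each untreated (blue) and TBI (red) library, with the mean and SD of each group in black. The TBI ratios of 2.31, 2.54 and 2.65 lie above the untreated ratios of 1.77 and 1.62.

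Transcript length moved with the changes and is given here as a measured value. Over the 11617 tested genes with a length (96.4%), Spearman's rho between the log2 fold change and the longest transcript in GENCODE M21 was -0.26, a correlation across genes of the same libraries. Against the untreated mean it was -0.37 in TBI replicate 1, -0.18 in TBI replicate 2 and -0.13 in TBI replicate 3. Within the members it was -0.55 over the 29 S-phase genes and -0.60 over the 26 M-phase genes. The M-phase genes Cenpf, Mki67 and Cenpe that fell have transcripts of 11130, 10061 and 7910 bases, the longest of their phase, and Dut and Rfc4 at the top of the S-phase genes have 1950 and 1279 bases. Prc1, at 3645 bases, and Gins2, at 3900 bases, lie near the middle.

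The phases themselves differed little in length, with a median of 3128 bases for S-phase genes and 3390 for M-phase genes. When all tested genes were split by length into 5 classes of like size, the S-phase median was above the M-phase median in each class, from 0.74 against -0.14 in the shortest (4 and 4 genes) to 0.18 against -0.76 in the longest (3 and 4 genes). When the trend with length was removed from each library before the fit, an alternative added after the data were seen, the medians were 0.40 and -0.25 and their difference was 0.64. The calls changed more. In that fit 6 S-phase genes rose, namely Cdt1, Gins2, Dut, Mcm5, Mcm6 and Rrm1, and 2 M-phase genes fell, namely Prc1 (-0.81 ± 0.17, edgeR adjusted p = 0.0119) and Ccnb2 (-0.51 ± 0.12, edgeR adjusted p = 0.0179), while 14.6% of all genes rose and 9.85% fell. Mcm6 then had 0.55 ± 0.11 (edgeR adjusted p = 0.0083). Cenpe, Mki67 and Cenpf no longer passed, with edgeR adjusted p = 0.101, 0.207 and 0.217 and log2 fold changes of -0.66, -0.45 and -0.44.

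**Figure D4:**
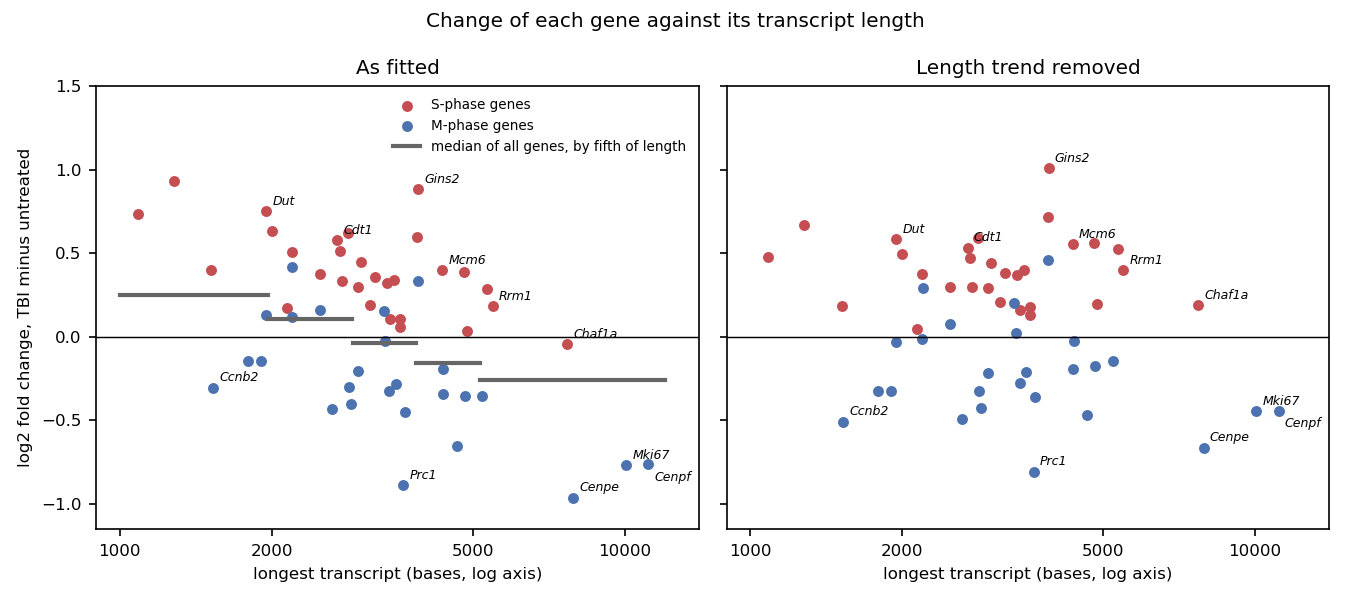
Log2 fold change of each S-phase (red) and M-phase (blue) gene against the length of its longest transcript on a log axis, as fitted (left) and with the length trend removed from each library (right). Grey bars on the left give the median of all genes in each of 5 length classes, cut at the edges of the plot, and S-phase points lie mostly above and M-phase points mostly below them.

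Per length, replication genes were the more abundant members. In untreated libraries the highest levels were those of Ccnb2 at 57.1 ± 0.24 RPKM, Rrm2 at 56.0 ± 1.78 RPKM, Mcm6 at 53.7 ± 2.81 RPKM and Mcm3 at 52.9 ± 3.62 RPKM (SD, n = 2), neighbours that lay within their spread of each other. After TBI the order was Rrm2 at 79.4 ± 17.7 RPKM, Mcm6 at 70.8 ± 8.28 RPKM and Pcna at 66.9 ± 11.3 RPKM (SD, n = 3), again within their spread. Cyclin B2 moved from the first to the sixth place at 46.2 ± 3.44 RPKM. These places depend on the length used, here all annotated exons of a gene. Pcna has 2400 bases of exon but a longest transcript of 1518, Rrm2 has 2771 and 2193, and Ccnb2 has 1531 by either measure. With the longest transcript as length, Pcna and Rrm2 would therefore gain on Ccnb2. Cenpf was the least abundant gene per length in both groups, at 1.22 ± 0.061 RPKM untreated and 0.719 ± 0.072 RPKM after TBI.

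Further genes of both processes, taken from textbook lists, gave fewer calls than the background. Of 38 other replication genes 3 rose (7.89% against 13.3% of all genes) and 0 fell, with a median log2 fold change of 0.16. Values were above 0 in 26 and below 0 in 12 of them. Every TBI library was above both untreated libraries in 11 of 38 (27.8% of all genes) and below both in 1 (28.3%). The separation of the S-phase members was thus not seen to the same degree in this list. Rnaseh2a, which removes ribonucleotides from DNA, rose from 33.1 and 29.3 CPM to 66.0, 51.8 and 50.7 CPM (0.85 ± 0.20, edgeR adjusted p = 0.0163). Cdca7, a chromatin factor and MYC target, rose from 70.1 and 73.3 CPM to 97.8, 122 and 123 CPM (0.67 ± 0.16, edgeR adjusted p = 0.0177). Tipin, of the fork protection complex, rose from 51.7 and 53.7 CPM to 85.3, 73.0 and 69.9 CPM (0.53 ± 0.16, edgeR adjusted p = 0.0491). The Tipin call held in 6 of 16 alternatives. It was lost under upper quartile scaling, with library sizes alone, without the low-count filter, with the replicate block and with the length trend removed. In all 3 the groups did not overlap, yet without untreated replicate 1 or without untreated replicate 2 none passed (edgeR adjusted p from 0.109 to 0.335), and without TBI replicate 2 Cdca7 (0.0632) and Tipin (0.0938) did not, nor Tipin (0.0538) without TBI replicate 3. Without TBI replicate 1, 6 genes of this list rose, where 17.8% of all genes did.

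Of 59 other mitosis genes 1 fell (1.69% against 9.79% of all genes) and 0 rose, with a median log2 fold change of -0.09. Values were below 0 in 35 and above 0 in 24 of them. Every TBI library was below both untreated libraries in 15 of 59 (28.3% of all genes) and above both in 5 (27.8%). The separation of the M-phase members was thus not seen to the same degree here either. Kif23, the kinesin that forms the central spindle together with Prc1 and Racgap1, fell from 57.8 and 67.3 CPM to 24.1, 21.4 and 25.7 CPM (-1.40 ± 0.18, edgeR adjusted p = 0.0010). This was a larger fall than that of any M-phase member, and it passed in 16 of 16 alternatives, with the length trend removed among them (-1.34 ± 0.16). Kif4, a chromosome motor that binds PRC1, stood at 30.5 and 24.0 CPM against 7.51, 8.23 and 18.9 CPM (-1.23 ± 0.39, edgeR adjusted p = 0.0544). Knstrn, a spindle and kinetochore protein, stood at 23.0 and 25.8 CPM against 14.2, 15.4 and 17.0 CPM (-0.65 ± 0.21, edgeR adjusted p = 0.0599). Cdca2, a chromatin regulator of mitosis, stood at 19.7 and 20.6 CPM against 15.0, 11.9 and 8.88 CPM (-0.76 ± 0.27, edgeR adjusted p = 0.0785). These 3 did not pass, with TBI libraries below both untreated ones. Without TBI replicate 1, 8 genes of the list fell, where 14.8% of all genes did, and without TBI replicate 3, 3 fell, where 9.05% of all genes did.

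Regulators of the G1 to S transition were called about as often as other genes, and a few changed by more than any of the 55 genes. Among 27 G1 cyclins, E2F and Rb family members and DREAM or MuvB subunits, 3 rose and 3 fell (11.1% each, near the 13.3% and 9.79% of all genes). Cyclin D2 (Ccnd2), an early partner of CDK4 and CDK6, rose from 86.0 and 91.5 CPM to 523, 499 and 388 CPM (2.40 ± 0.17, edgeR adjusted p = 3.4e-05). Myc rose from 18.4 and 23.1 CPM to 78.3, 40.8 and 70.5 CPM (1.605 ± 0.30, edgeR adjusted p = 0.0059, and 0.0601 without untreated replicate 1). Cdk6 rose from 9.01 and 11.8 CPM to 19.9, 19.7 and 17.4 CPM (0.87 ± 0.24, edgeR adjusted p = 0.0333). All 3 kept the groups apart, while cyclin D3 (Ccnd3), another D cyclin, overlapped at 358 and 352 CPM against 390, 322 and 287 CPM (-0.09 ± 0.15).

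The falling regulators were Myb, E2f2 and cyclin D1. Myb, a transcription factor of haematopoietic progenitors, fell from 116 and 117 CPM to 40.0, 41.8 and 50.9 CPM (-1.39 ± 0.16, edgeR adjusted p = 4.85e-04). E2f2, an activating E2F, fell from 35.5 and 35.0 CPM to 17.3, 11.9 and 21.8 CPM (-1.05 ± 0.27, edgeR adjusted p = 0.0230). Cyclin D1 (Ccnd1) fell from 77.6 and 69.3 CPM to 53.3, 47.1 and 39.8 CPM (-0.65 ± 0.18, edgeR adjusted p = 0.0317). With the length trend removed Ccnd1 did not pass. None of the 3 overlapped between groups. Cdk6, E2f2 and Ccnd1 lost the call without untreated replicate 1 (edgeR adjusted p = 0.326, 0.136 and 0.291) and without untreated replicate 2 (0.131, 0.131 and 0.156), Cdk6 and Ccnd1 also without TBI replicate 2 (0.0766 and 0.0839), and Ccnd1 without TBI replicate 3 (0.0730). Without TBI replicate 1, 5 genes of the list rose, where 17.8% of all genes did. Mybl2 (B-MYB), the partner of MuvB at CHR elements, stood at 14.7 and 17.7 CPM against 19.7, 19.6 and 22.9 CPM and did not pass (0.36 ± 0.22, edgeR adjusted p = 0.291).

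Among 17 tested inhibitors and checkpoint genes, 4 rose (23.5% against 13.3% of all genes) and 2 fell (11.8% against 9.79%). Cdkn1a, the p53-induced inhibitor p21 of cyclin-dependent kinases, rose from 161 and 139 CPM to 1100, 1055 and 945 CPM (2.78 ± 0.15, edgeR adjusted p = 9.17e-06). Mdm2, the ubiquitin ligase that p53 induces against itself, rose from 79.3 and 85.0 CPM to 182, 321 and 311 CPM (1.72 ± 0.25, edgeR adjusted p = 0.0016). Ccng1, another p53 target, rose from 119 and 121 CPM to 291, 379 and 366 CPM (1.52 ± 0.16, edgeR adjusted p = 2.62e-04). All 3 passed in 16 of 16 alternatives, and their TBI values lay far above the untreated ones. Chek1, the checkpoint kinase of stalled forks, is also an E2F target, and rose from 6.42 and 7.21 CPM to 17.1, 12.8 and 15.2 CPM (1.14 ± 0.27, edgeR adjusted p = 0.0179). Of the inhibitors that fell, Cdkn2c (p18) went from 45.2 and 44.2 CPM to 22.3, 18.7 and 17.0 CPM (-1.21 ± 0.20, edgeR adjusted p = 0.0030). Cdkn1b (p27) went from 25.1 and 25.3 CPM to 14.6, 16.7 and 13.6 CPM (-0.75 ± 0.21, edgeR adjusted p = 0.0348). Without untreated replicate 1 and without untreated replicate 2, Chek1 (edgeR adjusted p = 0.185 and 0.132) and Cdkn1b (0.235 and 0.252) did not pass, nor did Cdkn1b without TBI replicate 3 (0.0703) or with the length trend removed. Inhibitors of the cell cycle therefore changed in both directions.

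**Figure D5:**
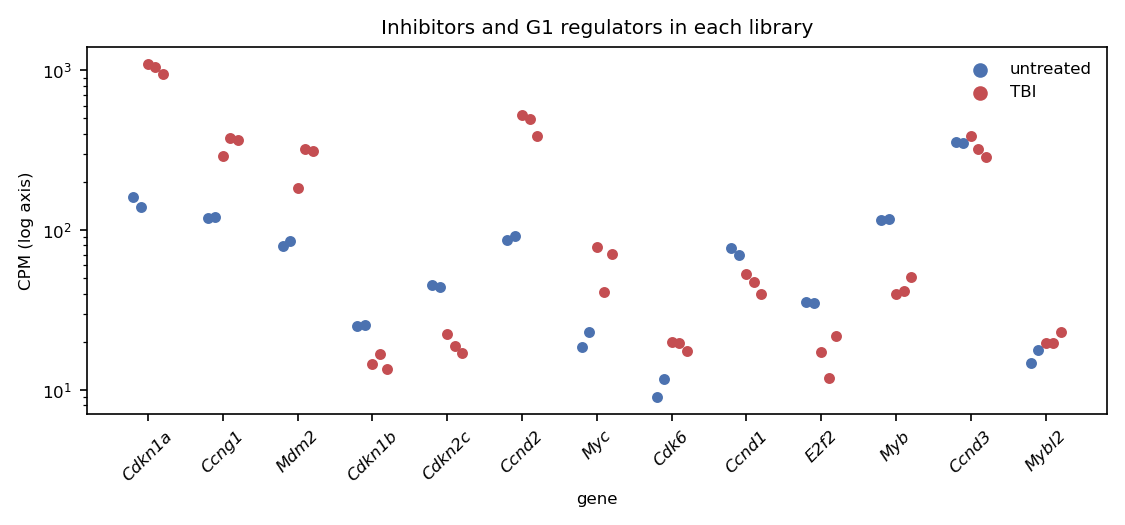
CPM of inhibitors and G1 regulators in each untreated (blue) and TBI (red) library, on a log axis. Cdkn1a and Ccnd2 show the widest gaps, from 161 and 139 to between 945 and 1100 CPM and from 86.0 and 91.5 to between 388 and 523 CPM, while Ccnd3 overlaps between the groups.

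Markers of other cell types changed along with the S to M contrast, and their part in the result was not tested. Beside the marker counts below, 13.3% of all genes rose and 9.79% fell. Of the conventional dendritic cell markers, which define the labelled cell type, 7 of 12 fell and 1 rose (Cd209a, log2 fold change 0.97). Their summed CPM was 50415 and 49789 untreated and 49128, 38345 and 34435 after TBI. Most of that sum came from Cd74 (28142 and 27766 CPM untreated) and H2-Ab1 (18046 and 18035 CPM untreated). Among the markers that fell, Flt3, Xcr1 and Clec9a had log2 fold changes of -3.15, -2.84 and -2.98. Batf3 (0.69), Sirpa (0.51) and Ccr7 (0.31) went the other way without passing, and for Batf3 every TBI library was above both untreated ones. All 8 plasmacytoid markers fell, 10 of 12 macrophage markers rose, and 8 of 8 natural killer and innate lymphoid markers rose, from summed values of 68.9 and 71.7 CPM to 1445, 1263 and 1608 CPM. B cell markers rose in 6 of 6 tested genes, from 108 and 86.1 CPM to 403, 425 and 293 CPM, with Pax5 at 0 in both untreated libraries. Thymocytes are a source of dividing cells in the thymus, and of the thymocyte and T cell markers 9 of 14 fell and 1 rose (Cd3g, log2 fold change 0.57). The general T cell genes Cd3d, Cd3e and Lck overlapped between the groups, with log2 fold changes of 0.07, 0.005 and 0.04. Ptcra, at 0.96, did not pass, though every TBI library was above both untreated ones. Rag1, of immature lymphocytes, fell from 69.0 and 64.4 CPM to 1.01, 12.0 and 1.31 CPM.

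Of the progenitor and neutrophil markers 4 of 9 tested fell and 1 rose, and their summed CPM of 235 and 502 untreated overlapped with 350, 224 and 295 after TBI. Kit, the receptor of early progenitors, fell from 162 and 161 CPM to 16.9, 37.7 and 57.1 CPM, and the granule genes Mpo, Elane and Ctsg were at 0 counts in every TBI library. Their untreated values were unequal, Mpo at 8.27 and 110 CPM, while Kit was nearly equal in them. Erythroid markers summed to 2.47 to 7.84 CPM in all libraries. Stromal and endothelial markers summed to 161 and 139 CPM against 67.5, 59.0 and 92.2 CPM (3 of 7 rose and 3 fell), with Pdgfra at 0 throughout, and thymic epithelial markers to 79.7 and 86.5 CPM against 38.6, 38.4 and 31.7 CPM (2 of 6 fell).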

How the data were processed

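Bulk RNA-seq libraries of sorted thymic dendritic cells (2 untreated, 3 TBI) were made with a SMART-Seq v4 low-input kit, which amplifies RNA by PCR, per the labels' protocols. The authors aligned reads to mm10 with STAR 2.5.2a and counted them per gene with Subread featureCounts 1.6.0, then used edgeR, as the submitters' processing notes list. Raw read counts per gene symbol are what the authors deposited, per the file headers and values. The annotation, strand setting and treatment of multiply mapped reads are not given in the sources used here, so overlapping or near-identical genes may share reads. The labels' treatment note names another day than the titles, whose day 4 was used.

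Differential expression was computed from these counts by edgeR 4.0.16 under R 4.3.3 (TMM scaling, filterByExpr with a minimum count of 10 and a minimum total of 15, quasi-likelihood F-test, Benjamini-Hochberg over 12046 genes, 0.05, group as the single term). Errors beside log2 fold changes are approximate standard errors, taken as the absolute log2 fold change divided by the square root of the F value of that test. CPM use TMM-scaled library sizes, and RPKM also the union exon length of GENCODE M21. Alternatives were other scalings, filters, DESeq2 1.42.0, limma-voom 3.58.1, robust shrinkage, a replicate block, stricter phase lists and each library left out. When an untreated library was left out, the remaining one is taken to vary as much as TBI libraries do. Removal of length and GC trends (lowess on log2 CPM, span 0.5, prior count 2) and the count of non-overlapping genes by scaling were added after the data were seen. The PCR reads carry no molecular identifiers, so depth covers counting error only.

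The members, phase groups, gene lists and marker lists were chosen with earlier results of these data known, so their direction is no independent evidence. Genes were named by a rule: in each role group the members with the 3 smallest p and the 2 highest mean CPM, every gene of a direction held by 5 or fewer, up to 4 genes of each list by smallest p, and Cdkn1a, Cdkn1b, Ccnd1, Ccnd2, Ccnd3, Myc, Mybl2 and Mdm2. A gene of the replication list that did not pass is not reported here. The members outside it were given by fold change alone, and the markers and Mcm10 values shown singly were chosen after their values were seen. Figures used matplotlib 3.10.9 in Python 3.11.15.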

Additional observations from a re-analysis of the deposited data

How the results depend on the processing

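The direction of the S-phase median (above 0) and of the M-phase median (below 0), and the sign of their difference, held in all alternatives run, though scaling can hardly move the difference. With library sizes alone, 0 S-phase genes rose and 9 M-phase genes fell, the medians were 0.15 and -0.53, 2129 of all genes fell against 1179, and 36.8% of calls were higher against 57.6%. In 18 of 26 M-phase genes (42.7% of all genes) TBI was then below and in 9 of 29 S-phase genes (18.4%) above both untreated libraries. Upper quartile scaling gave 0 rising S-phase genes (12.5% of all genes rose), no filter on low counts 1 (9.03%) and the DESeq2 Wald test 5 (14.9%). Removal of the length trend gave 6 (14.6%) and of the length and GC trends 7 (15.1%). Both removals gave 2 falling M-phase genes, where 9.85% and 10.2% of all genes fell. Among the other mitosis genes 1 fell, against 9 with library sizes alone (17.7% of all genes fell), 3 with upper quartile scaling (11%) and 4 with the block (10.7%). It was 2 with DESeq2 (11.2%), limma-voom (10.9%) or a trend removed (9.85% for length, 10.2% for length and GC). With each library left out in turn, rising S-phase genes numbered 0 to 7, falling M-phase genes 0 to 8, rising genes overall 810 to 2148 and falling genes overall 423 to 1780. The medians then ran from 0.32 to 0.44 in S phase and from -0.34 to -0.20 in M phase. The cause of these shifts was not tested.

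Same-numbered libraries did not deviate together (correlations -0.014 to 0.014), so the numbers name libraries only. With the replicate number as a block, 2 M-phase genes fell (10.7% of all genes fell), and Mcm10, Mcm4 and Uhrf1 turned to -0.31, -0.017 and -0.12. With library sizes alone the sign turned for Aurkb (-0.10), Birc5 (-0.075), Ccnb1 (-0.068), Cdc45 (-0.051), Mcm10 (-0.18), Mcm3 (-0.12), Mcm4 (-0.11), Prim1 (-0.035), Rrm1 (-0.042), Ube2c (-0.11) and Uhrf1 (-0.16). It also turned for Mcm10 under upper quartile scaling (-0.011) and limma-voom (-0.057). Removing the length trend turned Aurkb (-0.032), Ccnd3 (0.023), Cdca8 (0.024), Chaf1a (0.19) and Ube2c (-0.011), and removing both trends Aurkb (-0.018), Ccnd3 (0.041), Cdca8 (0.024) and Chaf1a (0.20). Leaving out 1 library gave log2 fold changes on both sides of 0 for Aurka from -0.48 to 0.027, Aurkb from -0.033 to 0.25, Birc5 from -0.077 to 0.31, Ccnd3 from -0.22 to 0.0083, Chaf1a from -0.43 to 0.24, Mcm10 from -0.19 to 0.35, Ube2c from -0.12 to 0.30 and Uhrf1 from -0.094 to 0.22. None of these genes passed the test reported above.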
